A study of Mus musculus with 8 samples.

Results

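The 10 genes described here encode members of the tumour necrosis factor (TNF) superfamily and its receptors: the ligands *Tnfsf10* (TRAIL), *Tnf*, *Cd40lg* and *Tnfsf8* (CD30L), and the receptors *Tnfrsf4* (OX40), *Tnfrsf9* (4-1BB), *Tnfrsf18* (GITR), *Tnfrsf1b* (TNFR2), *Cd27* and *Fas*. They were taken by name from a table of 11911 genes, all 10 were listed, and all 10 had enough counts to be among the 11317 genes tested. *Tnfsf10* was selected because it was lower in every knockout library, so its difference between genotypes is a description with no test, and the other 9 genes carry the tests. The libraries came from induced regulatory T cells (iTregs): naïve CD4+ T cells from mouse spleen, stimulated for 36 hours with anti-CD3 and anti-CD28 in the presence of TGF-β, anti-IFN-γ and anti-IL-4. There were 4 libraries from Foxp3YFP-Cre mice (controls, labelled WT) and 4 from Tdrd3fl/fl/Foxp3YFP-Cre mice (knockout). Both groups carry the YFP-Cre allele at *Foxp3*, and in the knockout this Cre deletes the floxed *Tdrd3* gene in cells that have transcribed *Foxp3*, so cells of the same culture that never did so keep the gene. TDRD3 is a Tudor domain protein that reads methylated arginines. The methods give neither the age of the mice used for these cultures nor a sort of YFP+ cells before the RNA was taken. The methods describe the replicates as coming from independent mice, but name fewer mice per genotype than there are libraries.

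TNF superfamily ligands are mostly membrane-bound trimers that cluster their receptors on a neighbouring cell. Receptors without a death domain, such as OX40, 4-1BB, GITR, TNFR2 and CD27, recruit TRAF adaptors and activate NF-κB and kinase cascades that act as costimulation in T cells, and several of them are well known surface proteins of regulatory T cells. Receptors with a death domain, such as Fas and the TRAIL receptor, recruit FADD and caspase-8 and can kill the cell, and TRAIL on lymphocytes is one of the molecules with which they can kill or restrain other cells.

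Counts of the listed genes summed to between 13258239 and 16001676 per library, and 3 counts corresponded to 0.188 to 0.225 CPM, the unit used below for counts scaled to the normalized library total. The T cell markers (*Cd3e*, *Cd4*, *Lck* and others, 8 genes) summed to 2113 to 2226 CPM in control and 2082 to 2158 CPM in knockout libraries. Of 10 Treg markers 3 were lower by at least 1.2-fold with an unadjusted P below 0.05 (*Foxp3*, *Gpr83* and *Lrrc32*), and of 7 naïve T cell markers 2 were (*Klf2* and *S1pr1*), with adjusted p-values of these 5 genes between 0.0617 and 0.189 in edgeR, while 1.7% of all tested genes were lower by this rule. *Foxp3* had 117, 122, 107 and 93.8 CPM in control and 77.2, 105, 93.2 and 78.1 CPM in knockout replicates 1 to 4. Markers of other cell types had sums of at most 3.71 CPM for B cells, 1.63 CPM for myeloid cells and 4.48 CPM for NK and innate lymphoid cells, and the myeloid gene *Lyz2* was at 0 in all 4 control libraries and in knockout replicates 2 and 3, with 0.653 CPM in knockout replicate 1 and 1.22 CPM in knockout replicate 4. The CD8 T cell markers *Cd8a* and *Cd8b1* summed to 7.72 to 21.8 CPM in control and 6.68 to 8.35 CPM in knockout libraries, and both were lower by the same rule (*Cd8b1* log2 fold change −0.36, unadjusted P = 0.0391, adjusted p = 0.499 in edgeR). *Tdrd3* itself had 18.8, 15.1, 9.95 and 17.7 CPM in control and 13.7, 10.7, 12.9 and 11.1 CPM in knockout replicates 1 to 4. The library labelled Foxp3YFP-Cre replicate 3 thus lay below every knockout library in *Tdrd3*, and it also held 11.3 CPM of *Cd8a*, against at most 1.37 CPM in the other 7. Knockout replicates 1 and 4 resembled each other more than any other knockout pair (chi-square per degree of freedom 2.59, against 3.78 to 4.85). The same held for control replicates 1 and 2 among the control pairs (2.7, against 4.95 to 6.29). Whether the libraries of such a pair came from 1 mouse is not given by the labels and was not tested. Results for the members are also given without replicate 3 of the controls and without knockout replicates 1 and 4 where these move them. Control replicates 1 and 2 were left out singly but not together.

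*Tnfsf10* (ENSMUSG00000039304, chromosome 3 of GRCm39, 27371033 to 27396576, plus strand) encodes TRAIL, the ligand of the death receptor DR5. It had 38.1, 36.4, 44.9 and 39.9 CPM in control replicates 1 to 4 and 23.1, 31.1, 32.1 and 27.8 CPM in knockout replicates 1 to 4. The highest knockout library (32.1 CPM) lay under the lowest control library (36.4 CPM), which is the property for which the gene was chosen. Counting error alone allowed 29.1 to 35.3 CPM in knockout replicate 3 and 33.3 to 39.8 CPM in control replicate 2 (95% exact Poisson intervals), so those libraries are not separated at this depth, while the interval of knockout replicate 1 (20.6 to 25.8 CPM, from 318 counts) lay below those of all other libraries except knockout replicate 4 (25.2 to 30.7 CPM). The means were 39.8 ± 3.64 CPM (SD, n = 4) in control and 28.5 ± 4.05 CPM (SD, n = 4) in knockout iTregs, a difference of −28.3%, and the log2 fold change was −0.48 (standard error 0.09). Without the library labelled Foxp3YFP-Cre replicate 3, which had the highest value, the log2 fold change was −0.42, and without knockout replicates 1 and 4, which had the lowest, it was −0.33. Those same replicates 1 and 4 also had the lowest *Foxp3* (77.2 and 78.1 CPM) and *Klf2* (22.2 and 24.4 CPM) of all 8 libraries, and whether this has a part in the *Tnfsf10* difference was not tested. In RNA from whole cultures, fewer cells that express a gene and less of its RNA per cell cannot be told apart, here and for every gene below.

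The sequence just upstream of the *Tnfsf10* start is shown beside that of *Tnfrsf9*, the member with the next largest difference, which has 2 annotated starts. The windows hold the 250 bases before each start and come from the RefSeq promoter table, which matched 9 of the 10 members (not *Cd40lg*) and uses GRCm38.p6, while the counts and all gene positions given here use GRCm39. Capitals mark matches, on either strand, to 4 motifs: forkhead GTAAACA, Krüppel-like CCACCC, Rel GGAANTTCC and AP-1 TGANTCA. The *Tnfsf10* window lies at chr3:27316827-27317076 on the plus strand, and the *Tnfrsf9* windows lie at chr4:150919905-150920154 and chr4:150927749-150927998, both on the plus strand.
Tnfsf10: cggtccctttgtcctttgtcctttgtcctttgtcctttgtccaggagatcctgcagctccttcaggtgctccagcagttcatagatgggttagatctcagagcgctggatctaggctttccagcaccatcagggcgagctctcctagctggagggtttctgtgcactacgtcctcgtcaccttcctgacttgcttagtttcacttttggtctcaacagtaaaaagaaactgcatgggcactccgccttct
Tnfrsf9 start 1: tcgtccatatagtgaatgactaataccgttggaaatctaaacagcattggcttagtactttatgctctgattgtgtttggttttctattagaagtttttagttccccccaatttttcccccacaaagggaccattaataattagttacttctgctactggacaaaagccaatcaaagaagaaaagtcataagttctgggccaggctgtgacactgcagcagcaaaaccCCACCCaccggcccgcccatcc
Tnfrsf9 start 2: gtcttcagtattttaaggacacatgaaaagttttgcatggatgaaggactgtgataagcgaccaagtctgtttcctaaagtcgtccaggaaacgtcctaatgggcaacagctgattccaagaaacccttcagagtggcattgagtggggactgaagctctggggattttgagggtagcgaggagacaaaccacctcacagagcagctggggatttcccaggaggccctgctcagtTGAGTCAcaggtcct
The *Tnfsf10* window held 0 matches to these letters, the window of the first *Tnfrsf9* start held CCACCC 22 bases before the start, and that of the second held TGAGTCA 15 bases before it. CCACCC occurs in 28.1% of 32851 RefSeq promoter windows of this length, TGANTCA in 6.75%, GTAAACA in 3.17% and GGAANTTCC in 0.813%. Among the other members, CCACCC was present before *Tnfrsf18*, *Tnfsf8*, *Tnfrsf1b*, *Cd27* and *Fas*, and TGANTCA before *Fas*. Matches to different motifs did not overlap. Such matches describe letters and do not show that a factor binds.

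The other 3 ligands did not pass the adjusted test. *Cd40lg* (ENSMUSG00000031132, chromosome X, 56257405 to 56269902, plus strand) encodes the ligand with which helper T cells activate CD40 on B cells and dendritic cells. It had 54.2, 46.6, 47.3 and 43.6 CPM in control and 46.5, 41.4, 37.1 and 44.9 CPM in knockout replicates 1 to 4. The groups overlapped, with the highest value in control replicate 1 and the lowest in knockout replicate 3. The log2 fold change was −0.17 (95% CI −0.34 to −0.01; unadjusted P = 0.0395, adjusted p = 0.499 in edgeR). Without knockout replicates 1 and 4 it was −0.29, past a fold of 1.2 (unadjusted P = 0.00671, adjusted p = 1 in edgeR). The unadjusted threshold was missed without control replicate 1 (−0.11, unadjusted P = 0.19, adjusted p = 0.849 in edgeR), without knockout replicate 3 (−0.12, unadjusted P = 0.157, adjusted p = 0.727) and without knockout replicate 2 (−0.16, unadjusted P = 0.0772, adjusted p = 0.537).

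*Tnf* (ENSMUSG00000024401, chromosome 17, 35418357 to 35420983, minus strand), the inflammatory cytokine that gives the family its name, was the only member with a higher mean in knockout than in control iTregs. Its values were 42.5, 39.4, 43.4 and 49.9 CPM in control and 46.8, 44.8, 45.7 and 49.6 CPM in knockout libraries. The highest library of each group was its replicate 4, and the groups overlapped (log2 fold change 0.09, 95% CI −0.05 to 0.24, adjusted p = 0.79 in edgeR). Without control replicate 4 the *Tnf* difference was 0.16 (unadjusted P = 0.0287, adjusted p = 0.367). *Tnfsf8* (ENSMUSG00000028362, chromosome 4, 63749542 to 63779592, minus strand), the ligand of CD30, had the highest level per kilobase of exon of the 4 ligands (50.2 CPM per kb in control). It had 189, 179, 198 and 201 CPM in control and 194, 168, 168 and 194 CPM in knockout replicates 1 to 4, so knockout replicates 1 and 4 lay within the control range and replicates 2 and 3 below it. The log2 fold change of *Tnfsf8* was −0.08 (95% CI −0.19 to 0.03, adjusted p = 0.734). It was −0.19 without knockout replicates 1 and 4 (unadjusted P = 0.00481, adjusted p = 0.959 in edgeR) and also −0.19 with 1 surrogate variable in the fit (unadjusted P = 0.000876, adjusted p = 0.332).

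*Tnfrsf9* (ENSMUSG00000028965, chromosome 4, 150999019 to 151030559, plus strand) encodes 4-1BB, a costimulatory receptor that appears on T cells after antigen receptor stimulation. It had 311, 331, 308 and 239 CPM in control and 245, 274, 261 and 258 CPM in knockout replicates 1 to 4. The first 3 control libraries lay above all knockout libraries, and control replicate 4 lay below all of them. With all libraries the means were 297 ± 40.4 CPM (SD, n = 4) and 259 ± 11.8 CPM (SD, n = 4), and the log2 fold change was −0.20 (standard error 0.07, unadjusted P = 0.0116, adjusted p = 0.335 in edgeR). Leaving out control replicate 4 gave −0.29 with an adjusted p of 0.00282, the only alternative of 17 in which a member passed the adjusted threshold, so whether *Tnfrsf9* passes depends on that library. With 1 surrogate variable in the fit, the *Tnfrsf9* difference was −0.07 (unadjusted P = 0.289, adjusted p = 0.972 in edgeR). The unadjusted threshold was also missed without control replicate 2 (−0.14, unadjusted P = 0.0604 in edgeR). The same held without knockout replicates 1 and 4 (−0.15, unadjusted P = 0.106 in edgeR) and in DESeq2 (unadjusted P = 0.0559).

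*Tnfrsf4* and *Tnfrsf18* are neighbours on chromosome 4, separated by 9551 bases, and both encode costimulatory receptors that are abundant on regulatory T cells. *Tnfrsf4* (ENSMUSG00000029075, 156098293 to 156101069, plus strand) had 349, 355, 377 and 338 CPM in control and 356, 340, 342 and 355 CPM in knockout libraries. All 4 knockout values lay within the control range. The log2 fold change of −0.03 had a 95% CI of −0.11 to 0.06, so larger differences in either direction lie outside this interval (adjusted p = 0.908 in edgeR). *Tnfrsf18* (ENSMUSG00000041954, 156110621 to 156113352, plus strand) had 356, 373, 365 and 309 CPM in control and 324, 339, 351 and 332 CPM in knockout libraries. Again the knockout values lay inside the control range, whose lowest library was replicate 4 (log2 fold change −0.06, 95% CI −0.16 to 0.05, adjusted p = 0.824). Without replicate 4, the other 3 controls lay above all knockout libraries and the *Tnfrsf18* difference was −0.12 (unadjusted P = 0.00959, adjusted p = 0.245 in edgeR). The exons of *Tnfrsf18* share 547 bases with the non-coding gene *Gm16008* on the opposite strand, and strandedness of the counting is not given in the sources used here.

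*Tnfrsf1b* (ENSMUSG00000028599, chromosome 4, 144938938 to 144973477, minus strand) encodes TNFR2, the TNF receptor without a death domain. It varied least of all members among the controls, with 156, 151, 160 and 157 CPM in control and 158, 147, 153 and 156 CPM in knockout libraries. Replicates varied by 2.29% (coefficient of variation) in control and 2.99% in knockout, and the groups overlapped (log2 fold change −0.02, 95% CI −0.11 to 0.06, adjusted p = 0.923 in edgeR). Its exons share 184 bases with *Gm68886* on the opposite strand.

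*Cd27* (ENSMUSG00000030336, chromosome 6, 125209585 to 125213988, minus strand), the receptor for CD70, supports T cell expansion and survival. It had 26.1, 26.7, 26.6 and 24.5 CPM in control and 24.0, 23.5, 23.8 and 22.2 CPM in knockout replicates 1 to 4. Every knockout library lay below every control library, but the gap was narrow, from 24.0 to 24.5 CPM. The log2 fold change of −0.15 (95% CI −0.31 to 0.00) missed both thresholds (unadjusted P = 0.0541, adjusted p = 0.549 in edgeR). *Fas* (ENSMUSG00000024778, chromosome 19, 34268001 to 34305173, plus strand), the death receptor that removes activated lymphocytes, had 20.8, 18.2, 19.8 and 14.9 CPM in control and 17.5, 17.3, 16.8 and 15.5 CPM in knockout libraries. Control replicate 4 was again the lowest of all 8 libraries, and the groups overlapped (log2 fold change −0.14, 95% CI −0.36 to 0.08, adjusted p = 0.791). The overlap for *Fas* rests on that library, and the difference was −0.23 without it (unadjusted P = 0.0308, adjusted p = 0.382 in edgeR) and −0.07 without control replicate 1.

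**Figure D1:**
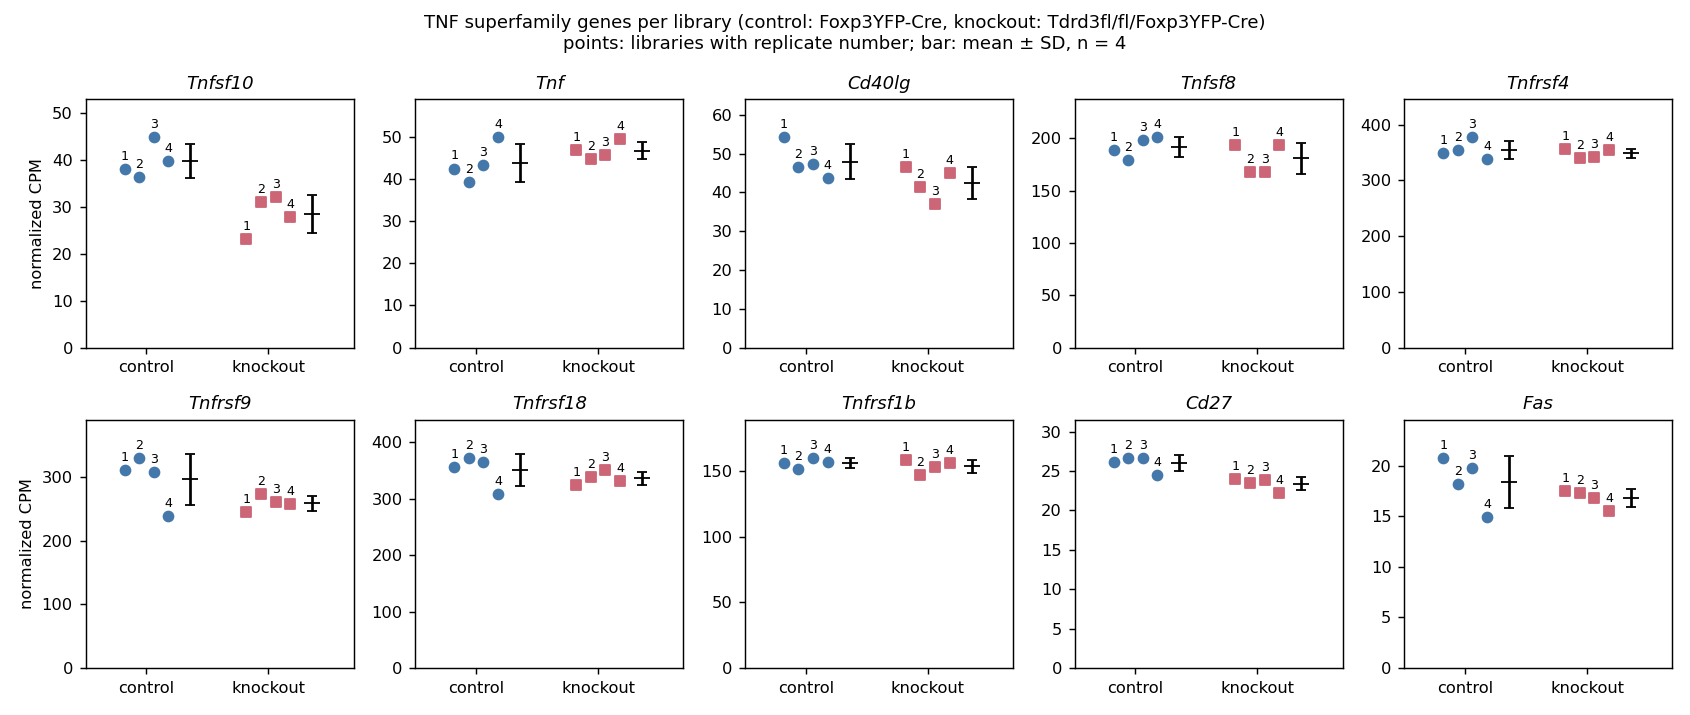
Normalized CPM (vertical axis, linear from 0) of the 10 genes in each library, with circles for control and squares for knockout replicates 1 to 4 and bars for the mean ± SD (n = 4). *Tnfsf10* and *Cd27* show no overlap between the genotypes (highest knockout 32.1 against lowest control 36.4 CPM, and 24.0 against 24.5 CPM), and control replicate 4 is the lowest library for *Tnfrsf9* (239 CPM), *Tnfrsf18* (309 CPM) and *Fas* (14.9 CPM).

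Among the 9 members other than *Tnfsf10*, 0 passed an adjusted p below 0.05 in edgeR, DESeq2 or voom, where 0.203% of all tested genes were called lower and 0.0619% higher by edgeR. At an unadjusted P below 0.05, 2 of the 9 were lower in edgeR (*Tnfrsf9* and *Cd40lg*), 1 in DESeq2 and 3 in voom had such a P, and the edgeR background was 4.91% of genes lower and 4.38% higher. Without control replicate 4, 5 of the 9 were lower (*Cd40lg*, *Tnfrsf9*, *Tnfrsf18*, *Cd27* and *Fas*) and 1 was higher (*Tnf*) at this threshold in edgeR, where the background was 5.77% lower and 5.02% higher, so this count depends on 1 library. Adding a fold of at least 1.2 left 0 of 9 by all 3 tools, against a background of 1.7% lower and 1.78% higher. The groups did not overlap for 1 of the 9 (*Cd27*), while 2.63% of all tested genes had every knockout library below every control library and 2.25% had the reverse. *Tnfsf10* was chosen on this contrast, and nothing is read from its place among these shares. The log2 fold change was negative for 8 of the 9 and positive for 1, with a median of −0.08, beside a median of 0.001 over all tested genes. This is a description of the members, which share libraries and were chosen with earlier results known. Summed over the 9 genes, control replicates 1 to 4 held 1505, 1520, 1545 and 1377 CPM and knockout replicates 1 to 4 held 1412, 1397, 1399 and 1427 CPM. Control replicate 4 lay below all knockout libraries and the other 3 control libraries above all of them, so the overlap of the sums rests on that library.

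**Figure D2:**
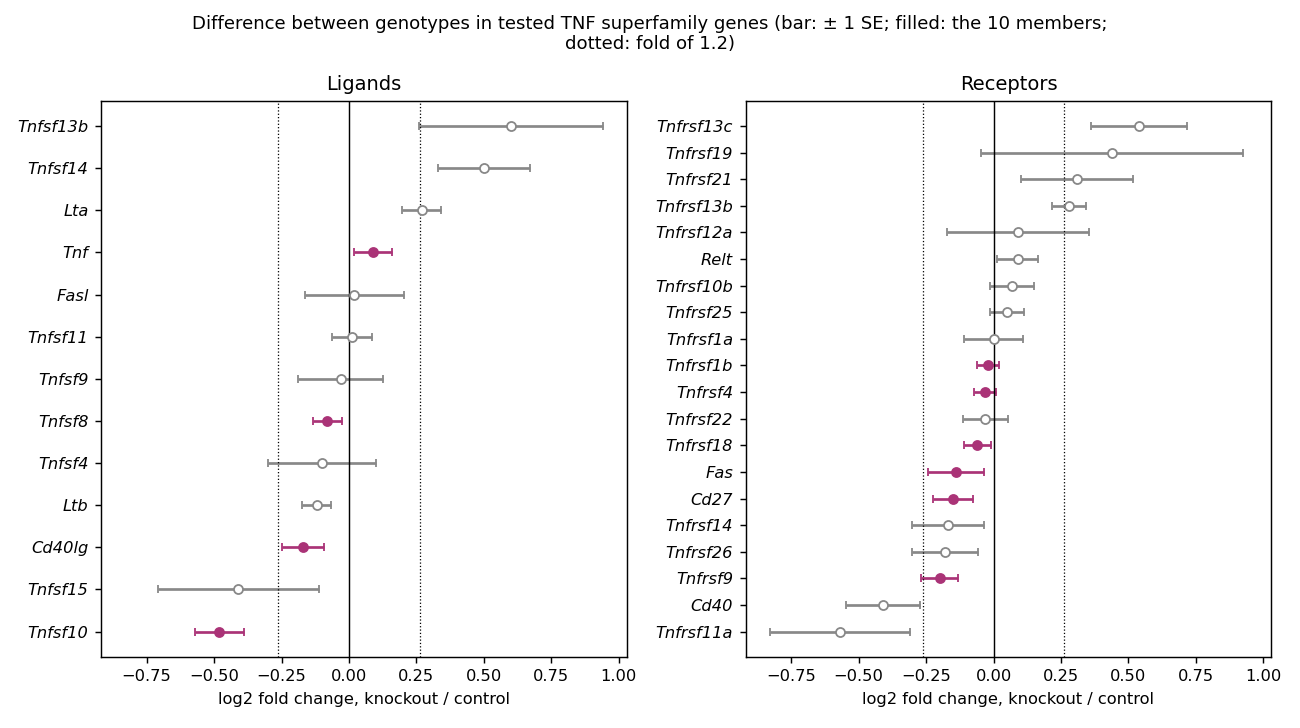
Log2 fold change, knockout over control (horizontal axis), of the tested superfamily ligands and receptors, with bars of ± 1 standard error, filled points for the 10 members and dotted lines at a fold of 1.2. *Tnfsf10* (−0.48) lies past the left dotted line, whereas the other 9 members lie between −0.20 and 0.09.

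Levels were compared between genes only per kilobase of annotated exon. In control iTregs, *Tnfrsf4* (259 CPM per kb) and *Tnfrsf18* (230 CPM per kb) were the highest members, followed by *Tnfrsf9* (109 CPM per kb), *Tnfsf8* (50.2 CPM per kb), *Tnfrsf1b* (31.5 CPM per kb), *Tnf* (26.7 CPM per kb) and *Cd40lg* (25.9 CPM per kb). *Cd27* (11.1 CPM per kb), *Fas* (7.95 CPM per kb) and *Tnfsf10* (7.36 CPM per kb) were the lowest. The costimulatory receptors OX40, GITR and 4-1BB thus headed the order and the TRAIL ligand closed it. Neighbours in this order had ranges over the 4 control libraries that overlapped for *Tnf* and *Cd40lg* and for *Fas* and *Tnfsf10*, so their order is not resolved. In knockout iTregs the order of the means was the same, the pair that overlapped was *Tnfrsf1b* (31.0 CPM per kb) and *Tnf* (28.5 CPM per kb), and *Tnfsf10* (5.27 CPM per kb) no longer overlapped *Fas* (7.23 CPM per kb).

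**Figure D3:**
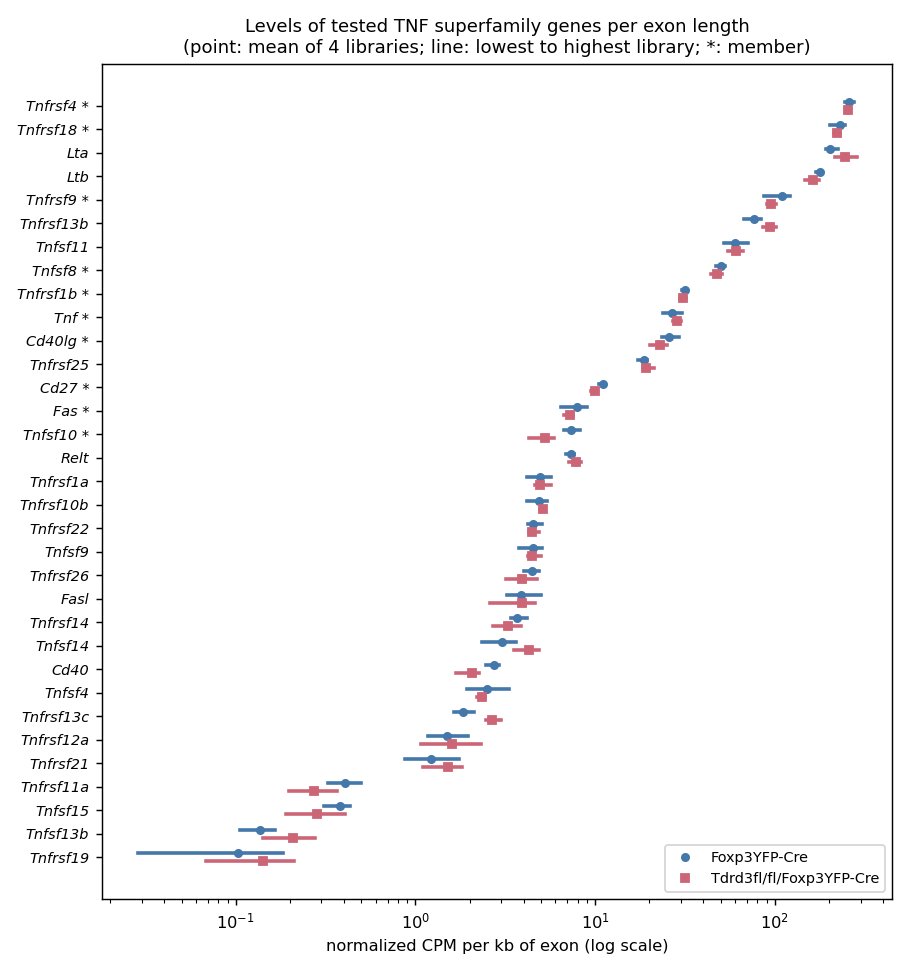
Normalized CPM per kb of exon (horizontal log axis) of the tested superfamily genes, with the mean of 4 libraries as a point and the range from the lowest to the highest library as a line, circles for control and squares for knockout. Members, marked with an asterisk, run from *Tnfrsf4* at 259 to *Tnfsf10* at 7.36 CPM per kb in control iTregs.

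The genes whose profile over the 8 libraries came nearest to that of *Tnfsf10* were found by the root mean square difference between centred log2(CPM + 0.5) values, whose median over all tested genes was 0.303. Because *Tnfsf10* was chosen for its difference between genotypes, genes near it differ between genotypes too, and no test is attached to them. The 5 nearest were *Mbnl3* (0.0785), which encodes an RNA-binding splicing regulator, *Slfn1* (0.0898), a Schlafen family gene, *Gpr179* (0.0919), an orphan receptor gene, *Samsn1* (0.102), an adaptor gene of lymphocytes, and the histone gene *H2bc11* (0.103), whose reads may be shared with near-identical copies and are therefore uncertain. *Mbnl3* had 104, 102, 120 and 104 CPM in control and 70.1, 92.4, 83.0 and 73.2 CPM in knockout replicates 1 to 4. As for *Tnfsf10*, its highest library was control replicate 3 and its lowest knockout replicate 1. *Slfn1* had 14.4, 14.3, 16.3 and 14.7 CPM in control and 9.80, 11.0, 11.0 and 9.98 CPM in knockout libraries. The other members lay farther away, from *Cd27* at rank 555 (0.23) and *Tnfrsf9* at rank 835 (0.24) to *Tnf* at rank 8218 (0.338). Of the 9, 8 lay nearer than the median gene, which does not by itself show likeness to *Tnfsf10*. A gene with nearly level values also does so, such as *Tnfrsf1b* (0.28, log2 fold change −0.02). *Foxp3* ranked 155 (0.196) and *Klf2* 3682 (0.284). The measure is not scaled for the size of a difference. *Klf2*, like *Tnfsf10*, was lowest in knockout replicates 1 and 4, but its log2 fold change was larger (−0.74).

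**Figure D4:**
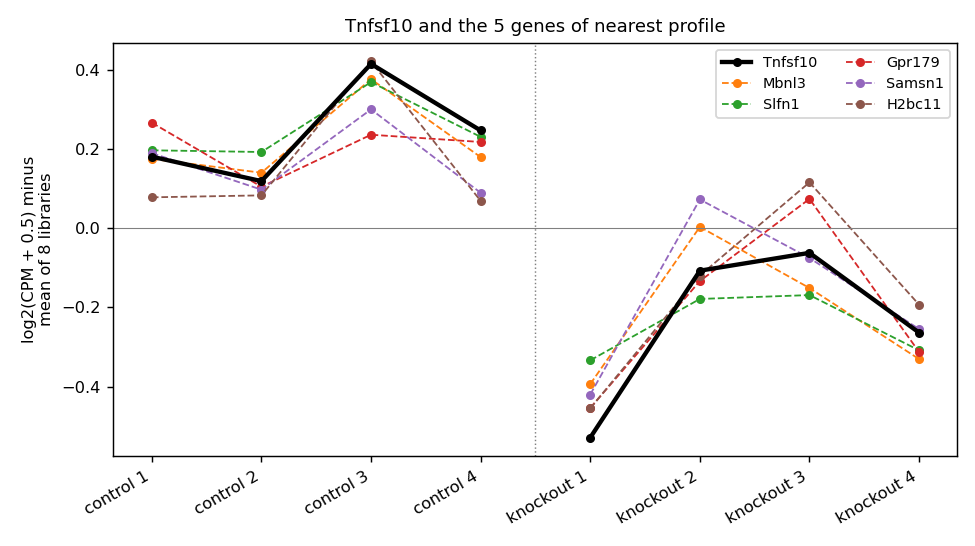
Centred log2(CPM + 0.5) in each of the 8 libraries for *Tnfsf10* (solid line) and the 5 genes with the smallest root mean square difference from it (dashed lines, 0.0785 to 0.103). All 6 lines are lowest in knockout replicate 1, where *Tnfsf10* had 23.1 CPM, and highest in control replicate 3, where it had 44.9 CPM, except that *Gpr179* is highest in control replicate 1.

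The partners of the members were followed next, as binding pairs known from textbook knowledge. *Tnfrsf10b* (ENSMUSG00000022074), which encodes the TRAIL receptor DR5, had 23.7, 27.5, 29.4 and 30.7 CPM in control and 30.1, 29.9, 28.0 and 28.7 CPM in knockout libraries. These groups overlapped (log2 fold change 0.07, 95% CI −0.10 to 0.24, adjusted p = 0.875 in edgeR). *Cd40* (ENSMUSG00000017652, chromosome 2, 164897544 to 164914868, plus strand), the receptor of CD40L and chiefly a protein of antigen-presenting cells, had 9.11, 8.44, 9.88 and 9.91 CPM in control and 7.04, 7.65, 7.74 and 5.77 CPM in knockout replicates 1 to 4. All knockout libraries lay below all control libraries, and *Cd40* passed the unadjusted threshold with the fold but not the adjusted threshold (log2 fold change −0.41, standard error 0.14, unadjusted P = 0.00851, adjusted p = 0.295 in edgeR). The B cell markers summed to 1.92 to 3.71 CPM in control and 1.09 to 2.93 CPM in knockout libraries, with 3 of 6 listed, and the myeloid markers to 0.35 to 1.63 and 0.15 to 1.36 CPM, with 2 of 10 listed. Their part in the *Cd40* difference was not tested. Without knockout replicates 1 and 4 the *Cd40* difference was −0.28 (unadjusted P = 0.0993).

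*Fasl*, *Tnfsf4* (OX40L), *Tnfsf9* (4-1BBL), *Tnfrsf1a* (TNFR1) and *Tnfrsf8* (CD30) are named as further partners and were chosen after their values were seen. *Fasl* had a mean of 7.51 ± 1.58 CPM (SD, n = 4) in control and 7.62 ± 1.74 CPM (SD, n = 4) in knockout iTregs. *Tnfsf4* had 4.62 ± 1.14 and 4.32 ± 0.180 CPM, and *Tnfsf9* had 6.02 ± 0.720 and 5.91 ± 0.524 CPM (SD, n = 4 each). *Tnfrsf1a* had 15.6 ± 2.06 and 15.6 ± 1.48 CPM (SD, n = 4 each). For these 4 genes the log2 fold changes ran from −0.10 to 0.02 and the groups overlapped, which at their low counts does not show equal levels: for *Fasl* the 95% CI was −0.37 to 0.40. *Tnfrsf8* was listed at 0.0701 to 0.827 CPM, near the level of 3 counts, and was left out of the tests. *Tnfsf18* (GITRL) and *Cd70* were not among the further superfamily genes that had values here, so nothing is said of their levels.

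Outside the 10 members, a list of 36 further superfamily genes, 14 ligands and 22 receptors, had 26 genes in the table and 23 tested. By edgeR 0 of the 23 passed the adjusted test, 7 had an unadjusted P below 0.05, and 6 also had a fold of at least 1.2, of which 4 were higher and 2 lower in knockout iTregs. DESeq2 and voom each called 1 gene at an adjusted p below 0.05, *Tnfrsf13b*. The share of all tested genes past the unadjusted threshold with the fold was 1.78% higher and 1.7% lower, and the median log2 fold change of the 23 genes was 0.02, beside 0.001 for all genes. The number called fell to 4 without control replicate 1, without control replicate 2 or without the library labelled Foxp3YFP-Cre replicate 3. It fell to 3 without knockout replicate 1 or without knockout replicate 4, and to 2 without both of these. Without control replicate 4 or without knockout replicate 3 it rose to 7.

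*Tnfrsf13b* (ENSMUSG00000010142, chromosome 11, 61017574 to 61040434, plus strand) encodes TACI, a receptor for BAFF and APRIL best known from B cells. It had 237, 249, 207 and 257 CPM in control and 311, 266, 265 and 312 CPM in knockout replicates 1 to 4. All knockout libraries lay above all control libraries, and knockout replicates 1 and 4 were the highest (log2 fold change 0.28, standard error 0.06, unadjusted P = 0.000344, adjusted p = 0.0758 in edgeR). The adjusted p ran from 0.00624 to 1 over 17 alternatives and was below 0.05 in 5 of them, and without knockout replicates 1 and 4 the log2 fold change was 0.16. At 77.1 CPM per kb in control iTregs the gene lay above *Tnfsf8*. The B cell markers, of which 3 of 6 were listed, summed to at most 3.71 CPM in any library, a unit not divided by exon length. Which cells the *Tnfrsf13b* RNA came from was not tested. *Tnfrsf13c* (ENSMUSG00000068105, chromosome 15, 82105944 to 82108580, minus strand), which encodes the BAFF receptor, had 3.56, 3.35, 4.35 and 3.89 CPM in control and 5.23, 6.14, 5.11 and 5.57 CPM in knockout libraries. Here too the groups did not overlap, and the gene kept its call in all 17 alternatives (log2 fold change 0.54, standard error 0.18, unadjusted P = 0.00669, adjusted p = 0.267), with 46 to 98 counts per library and 407 bases of exon shared with *Gm62282* on the opposite strand.

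*Lta* (ENSMUSG00000024402, chromosome 17, 35422141 to 35424327, minus strand) encodes lymphotoxin-α, lies 1157 bases from *Tnf* and was among the highest superfamily ligands per length (204 CPM per kb in control). It had 316, 313, 323 and 362 CPM in control and 460, 351, 348 and 420 CPM in knockout replicates 1 to 4. Knockout replicates 1 and 4 lay above all controls, and replicates 2 and 3 lay within the control range (log2 fold change 0.27, standard error 0.07, unadjusted P = 0.00145, adjusted p = 0.138 in edgeR). Without those 2 knockout libraries the log2 fold change was 0.09, and *Tnf* beside it had 0.09 with all libraries. *Lta* kept its call in 9 of 17 alternatives, and its adjusted p was below 0.05 in 3 of the 17. Elsewhere the call was lost through the fold alone, with 2 exceptions. These were the fit with 1 surrogate variable (unadjusted P = 0.0621 in edgeR) and that without knockout replicates 1 and 4 (unadjusted P = 0.143 in edgeR). *Tnfsf14* (ENSMUSG00000005824), which encodes LIGHT, had 4.86, 4.44, 6.66 and 6.87 CPM in control and 8.49, 6.71, 9.17 and 7.95 CPM in knockout libraries. Only knockout replicate 2 fell within the control range (log2 fold change 0.50, standard error 0.17, unadjusted P = 0.00882, adjusted p = 0.297). *Tnfrsf11a* (ENSMUSG00000026321), which encodes RANK, had 3.77, 3.20, 2.87 and 2.48 CPM in control and 1.74, 2.76, 2.25 and 1.49 CPM in knockout libraries, from 22 to 55 counts. Its groups overlapped (log2 fold change −0.57, standard error 0.26, unadjusted P = 0.0401, adjusted p = 0.499), and the call held in 11 of 17 alternatives.

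The further ligands and receptors of highest mean CPM that were not called were *Ltb*, *Tnfsf11*, *Tnfrsf25* and *Tnfrsf10b*. *Ltb*, which encodes lymphotoxin-β, had 276 ± 10.1 CPM (SD, n = 4) in control and 254 ± 23.0 CPM (SD, n = 4) in knockout iTregs (log2 fold change −0.12, unadjusted P = 0.0352, adjusted p = 0.494 in edgeR). *Tnfsf11* (RANKL) had 134 ± 17.5 and 136 ± 12.0 CPM, and *Tnfrsf25* (DR3) had 55.9 ± 2.73 and 58.0 ± 4.01 CPM (SD, n = 4 each). Both had overlapping groups, with log2 fold changes of 0.01 and 0.05.

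The signalling machinery below the receptors was described with 39 genes, 28 of the TRAF and NF-κB arm and 11 of the death receptor arm, all of them tested. In edgeR, 0 of the 39 passed an adjusted p below 0.05 or an unadjusted P below 0.05 with a fold of at least 1.2, and 4 had an unadjusted P below 0.05, 2 lower and 2 higher, which is 10.3% of them beside 9.3% of all tested genes. DESeq2 and voom also called 0 by either rule, with 3 and 5 at an unadjusted P below 0.05. The median log2 fold change was −0.01 in the TRAF and NF-κB arm and −0.03 in the death receptor arm, beside 0.001 for all genes. The highest genes of the first arm were *Traf6*, an adaptor of TNF receptors and Toll-like receptors (357 ± 11.0 CPM in control and 372 ± 9.45 CPM in knockout), *Map3k7*, the kinase TAK1 (267 ± 14.6 and 272 ± 9.66 CPM), and *Rbck1*, a subunit of the linear ubiquitin ligase (205 ± 6.64 and 202 ± 8.75 CPM; SD, n = 4 each). Those of the 11 genes of the death receptor arm were *Xiap*, a caspase inhibitor (155 ± 3.77 and 152 ± 7.40 CPM), *Casp8*, the initiator caspase of Fas and TRAIL receptors (151 ± 8.39 and 139 ± 7.35 CPM), and *Cflar*, which encodes the caspase-8 regulator c-FLIP (118 ± 4.22 and 123 ± 4.77 CPM; SD, n = 4 each). *Casp8* had 155, 158, 152 and 139 CPM in control and 132, 150, 136 and 139 CPM in knockout libraries, with overlapping groups (log2 fold change −0.12, unadjusted P = 0.0321, adjusted p = 0.479 in edgeR).

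*Tnfsf10* is known to be induced by interferons, and 20 interferon response genes were therefore looked at beside it. Of these 14 were listed and 13 tested, and the median log2 fold change was −0.03. By the unadjusted threshold with the fold 1 was lower (*Irf7*), beside 1.7% of all tested genes. *Irf7*, at 1.09 to 2.98 CPM, was lower in every knockout than in every control library (log2 fold change −0.80, adjusted p = 0.288 in edgeR). *Ifih1* was higher at an unadjusted P of 0.0396 in edgeR, with a log2 fold change of 0.23. Their summed level was 433 to 466 CPM in control and 445 to 452 CPM in knockout libraries, so the knockout sums lay within the control range while *Tnfsf10* did not.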

How the data were processed

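RNA was sequenced from 4 control and 4 knockout cultures after ribosomal RNA removal. According to the study methods and the submitters' processing notes, the authors aligned reads to GRCm39 with STAR 2.7.8a and quantified genes with the Partek E/M algorithm, which divides ambiguous reads. The estimated counts were deposited by the authors after filtering, without normalization, and 43% are not whole numbers. The methods mention 3 independent mice per genotype but there are 4 labelled libraries for each, and all were included.

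Here, estimated counts were rounded, normalized by TMM and tested for genotype across 11317 genes (filterByExpr, minimum count 10) with the two-sided quasi-likelihood test of edgeR 4.0.16 (R 4.3.3), and p-values were adjusted by the Benjamini-Hochberg method over all of them. CPM are counts scaled to the normalized total. TMM factors ranged from 0.993 to 1. Alternatives were DESeq2 1.42.0, voom with quality weights (limma 3.58.1), 1 surrogate variable (sva 3.50.0), other filters and scalings, a replicate block and libraries left out. The test script was checked on simulated counts. No libraries of a group were duplicates (chi-square per degree of freedom 2.59 to 6.29). Poisson intervals and the level of 3 counts cover counting error only. Exon lengths, positions and overlaps come from GENCODE M39.

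The members and gene lists were chosen with earlier results of these data known. Named genes were the 10 members, every further superfamily or signalling gene past an unadjusted P below 0.05 with a fold of at least 1.2, the 3 genes of highest mean CPM in each list, the 5 nearest profiles to *Tnfsf10*, markers where their list is reported, and *Tdrd3* and *Foxp3*. Binding partners were added after their values were seen. Some genes of the lists are not reported here.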

Additional observations from a re-analysis of the deposited data

Results flagged for a closer look

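In groups of 4 libraries, a library counted as standing apart where its gap to the nearest other library, divided by the range of the group, exceeded 0.829. Of 52 groups tested (26 named genes in each genotype), 2 met this, and chance gives about 1 in 20. *Rbck1* had 215 CPM in knockout replicate 3, against 197 to 199 CPM in the other knockout libraries. *Xiap* had 163 CPM in knockout replicate 2, against 147 to 150 CPM in the others. Both encode signalling proteins and neither is a member.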

How the results depend on the processing

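Over 17 alternatives, 150 of 153 log2 fold changes of the 9 tested members kept their direction and their side of the adjusted threshold. The exceptions were *Tnfrsf4*, at 0.00395 without the library labelled Foxp3YFP-Cre replicate 3 (−0.05 without control replicate 4), *Tnfrsf18*, at 0.012 with 1 surrogate variable, and *Tnfrsf9*, at −0.29 and past the threshold without control replicate 4. The cause was not tested. *Tnfsf10*, which was not tested, ranged from −0.54 without knockout replicate 3 to −0.33 without knockout replicates 1 and 4. Its choice for lower values in every knockout library fixed its direction where libraries were left out, so nothing is read from that direction. When 1 library was left out in turn, 0 to 1 of the 9 other members passed the adjusted threshold and 0 to 1 the unadjusted threshold with a fold of 1.2 (*Tnfrsf9* without control replicate 4 in both cases), with 3 to 7 of the further superfamily genes and 0 to 2 of the signalling genes. With knockout replicates 1 and 4 left out together, which leaves fewer samples, the unadjusted rule called 1 member (*Cd40lg*) and 2 further superfamily genes. With 1 surrogate variable it called 3 further superfamily genes. Same-numbered libraries did not deviate together (correlations −0.0458, 0.00404, −0.0417 and 0.0691, with 1 of 8 libraries nearest to its own number). The labels name no pairing, and these correlations cannot exclude one. With the number as a replicate block, 0 members passed the adjusted threshold and 5 further superfamily genes the unadjusted rule. Over all tested genes, the adjusted threshold called 30 genes, and 3 to 161 under the alternatives (81 in DESeq2, 95 in voom, 87 with the replicate block, 8 with 1 surrogate variable). The unadjusted rule called 393, and 221 to 526 under the alternatives. Depth limits genes such as *Tnfrsf11a*, with 22 to 55 counts per library, more than the members, the lowest of which had 211 counts.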
